A study of Mus musculus with 14 samples.

Results

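The lymphocyte and antigen presentation genes are 38 of the 54532 genes in the count table, picked by gene symbol. They comprise 11 T cell genes, 8 cytotoxic and natural killer (NK) cell genes, 5 B cell genes, 4 plasma cell genes, 7 MHC class II genes and 3 dendritic cell genes. All 38 were found, and 37 passed the filter on low counts that preceded testing; Ncr1, an NK cell receptor gene, did not.

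The RNA came from the livers of C57BL/6J mice at 52 weeks of age, in 14 libraries of 5 groups. WTF is liver of wild-type females (n = 2, numbers 2 and 3), NTF is non-tumour liver tissue of Abcb11-/- females (n = 3), and Abcb11F is tumour tissue from the livers of Abcb11-/- females (n = 3). WTM is liver of wild-type males (n = 3) and Abcb11M is liver of Abcb11-/- males (n = 3), whose tissue the labels do not divide into tumour and non-tumour. Abcb11 encodes the bile salt export pump of hepatocytes. The series' design text gives 3 mice per group, but the labels do not tie a sample to an animal, so whether tumour and non-tumour tissue came from the same mice is not known and p-values measure the spread between these samples.

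T cells recognise peptides held by MHC molecules through a receptor that signals by way of the CD3 chains and the kinases LCK and ZAP70. CD8 T cells and NK cells kill with perforin and granzymes. B cells sense antigen through immunoglobulin coupled to CD79A and CD79B, and plasma cells, their descendants, secrete immunoglobulin. MHC class II molecules present peptides taken up from outside the cell and are made chiefly by B cells, dendritic cells and macrophages, in liver including Kupffer cells, under the coactivator CIITA and the promoter-binding RFX and NF-Y factors.

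Levels are CPM, a gene's counts scaled to a fixed library total after TMM scaling, and fold changes are log2 values with their standard error (SE) from edgeR's quasi-likelihood test, whose p-values were adjusted by the Benjamini-Hochberg method over all 17874 genes tested. Library totals ran from 14745140 to 19480538 counts. Abcb11 itself lay between 270 and 489 CPM in the 5 wild-type libraries and between 17.9 and 104 CPM in the 9 knockout libraries, so every library matched its genotype label. A count of 3 in a library, the floor used for genes at 0, corresponded to 0.136 to 0.223 CPM.

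Library 3 of the wild-type males (WTM 3) stood apart from the other 13 for these genes. Its 38 genes took 276528 counts, 1.43% of the library, against 2473 to 27739 counts in the other libraries. It held the highest level of 33 of the 38 genes, whereas it held the highest level of 13.2% of all tested genes. In 30 of the 38 it was at least 2 times, in 27 at least 3 times, in 17 at least 5 times and in 4 at least 10 times the next highest library. Ptprc, which encodes the pan-leukocyte protein CD45, was 76.7 CPM in WTM 3 and 4.58 to 37.3 CPM elsewhere, and Alb, the hepatocyte gene for albumin, had its lowest level there, 15094 CPM against 25765 to 57158 CPM. The part of these differences in the male results was not tested.

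**Figure D1:**
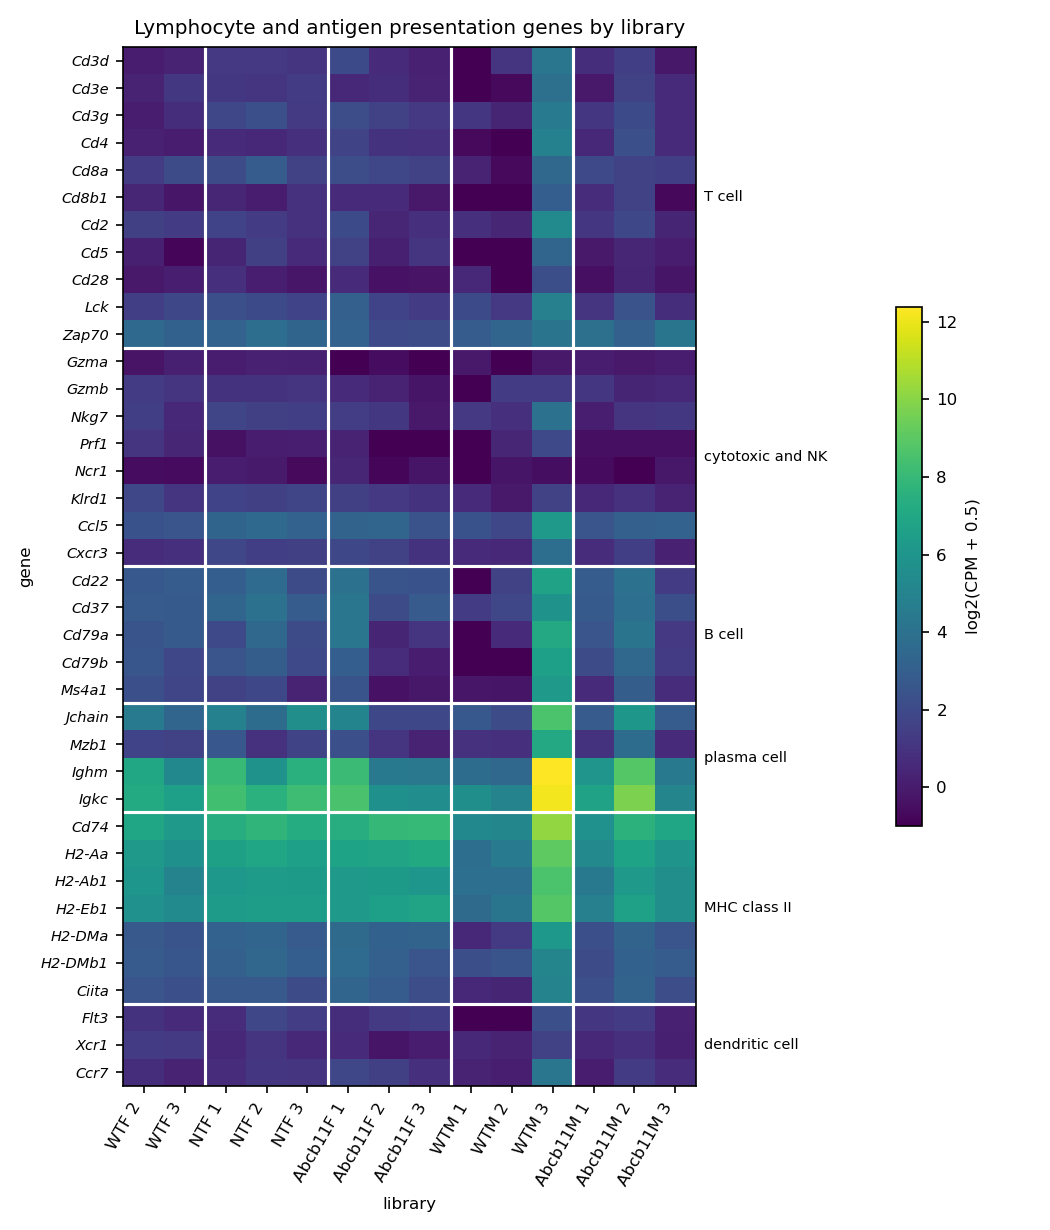
Level of each of the 38 genes (rows, by role) in each of the 14 libraries (columns, by group), coloured by log2(CPM + 0.5). WTM 3 is the brightest column for 33 of the 38 genes, while WTM 1 and WTM 2 are the darkest for many.

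All 3 wild-type male libraries also differed from the rest in their low counts. Genes with exactly 1 count numbered 210, 205 and 242 in WTM 1, 2 and 3, and 461 to 1850 in the other libraries. The most frequent count between 2 and 30 was 10, 11 and 7 in the wild-type males, 4 in tumour library 1 and 2 in the others. Of the 38 genes, 11 were at 0 counts in WTM 1 and 7 in WTM 2, against none to 2 in any other library. The part of this pattern in the male results was not tested, and it cannot be told apart from the wild-type male group.

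**Figure D2:**
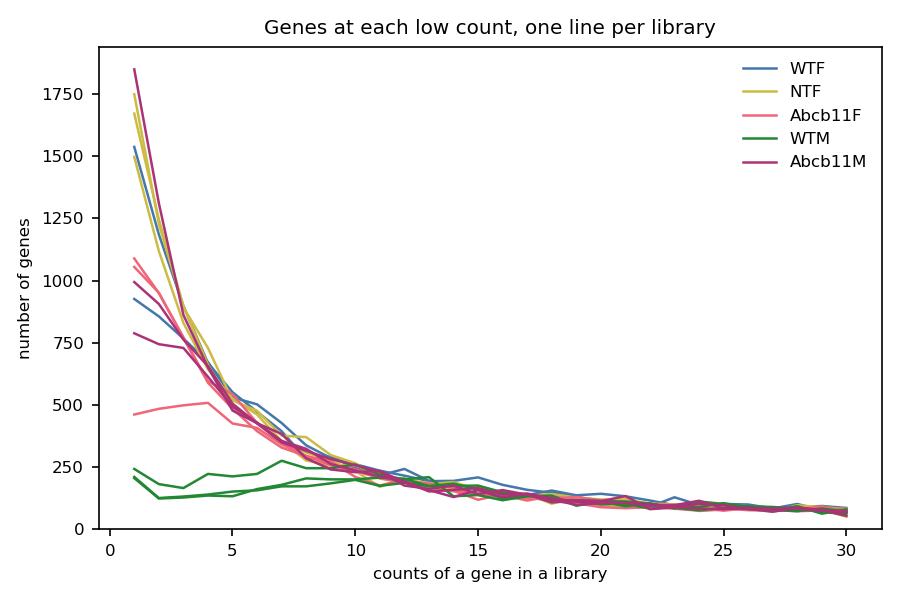
Number of genes (vertical axis) at each count from 1 to 30 (horizontal axis), with 1 line per library coloured by group. The 3 WTM lines start at 205 to 242 genes with 1 count, fall, and rise again to 10, 11 and 7 counts in WTM 1, 2 and 3. Of the other 11 lines, that of Abcb11F 1 peaks at 4 counts and the rest are highest at 1 count.

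By edgeR's test, none of the 37 tested genes passed an adjusted p of 0.05 in any of the 6 comparisons when all 14 libraries were fitted. Over all tested genes, the share called was 4.16% for NTF against WTF (1.9% higher, 2.26% lower), 0% for Abcb11F against NTF, and 9.61% for Abcb11F against WTF (3.94% higher, 5.67% lower). It was 20.6% for Abcb11M against WTM (14.3% higher, 6.32% lower), 10.9% for the difference between the female and male knockout effects (2.2% higher, 8.68% lower), and 23.1% for WTM against WTF (7.03% higher, 16.1% lower). At an unadjusted p under 0.05 the genes numbered 0, 2, 0, 6, 3 and 3 of 37 in the same order, where the shares of all tested genes were 21.2%, 6.81%, 26.5%, 34.3%, 28.2% and 36.1%. DESeq2 called 0, 0, 0, 3, 1 and 3 of the 37, where its shares of all tested genes were 10.9%, 0.162%, 17%, 25.6%, 17% and 28.6%.

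The MHC class II genes were the most abundant of the protein-coding sets. Cd74, the invariant chain that escorts class II molecules, was 120 and 74.3 CPM in the wild-type females. It was 161, 216 and 159 CPM in NTF 1 to 3 and 161, 245 and 254 CPM in tumours 1 to 3. Every knockout female library therefore lay above both wild-type female libraries. In males Cd74 was 36.9, 34.6 and 1178 CPM in WTM 1 to 3 and 54.6, 193 and 119 CPM in Abcb11M 1 to 3, so the knockout libraries lay between 2 low controls and 1 very high one. Per kilobase of gene model, Cd74 averaged 99.8 CPM over the 13 libraries without WTM 3, against 0.531 for Ciita, the gene of the class II coactivator.

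H2-Aa, the alpha chain of the I-A molecule, lies on chromosome 17 (GRCm38, 34282744 to 34287827, minus strand). Its levels were 73.3 and 51.7 CPM in WTF, 96.9, 118 and 94.8 CPM in NTF and 107, 114 and 139 CPM in Abcb11F. In males they were 14.04, 23.3 and 531 CPM in WTM and 38.3, 109 and 61.2 CPM in Abcb11M. H2-Eb1, the beta chain of the I-E molecule, was 54.5 and 41.7 CPM in WTF, 83.8, 91.2 and 88.8 CPM in NTF and 73.1, 93.9 and 114 CPM in Abcb11F. It was 12.1, 17.9 and 470 CPM in WTM and 28.3, 99.5 and 47.8 CPM in Abcb11M. As for Cd74, the knockout males lay between 2 low controls and WTM 3. The other 4 genes, H2-Ab1, H2-DMa, H2-DMb1 and Ciita, ranged from 0.787 to 83.6 CPM outside WTM 3 and from 31.1 to 385 CPM in it. H2-DMb1 has a near-identical neighbour, H2-DMb2, so its counts are uncertain.

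Class II promoters are known for an X box, bound by the RFX complex, and a downstream Y box, bound by NF-Y. RefSeq promoter windows of 300 bases (GRCm38.p6) matched 23 of the 38 genes, 4 of them class II genes with 5 windows. With both strands of each window searched, the letters GNAAC (N is any base), used as an X box core, were followed on the same strand 32 or 33 bases later by the Y box letters ATTGG in 3 of those 5 windows, and in 0.390% of all 32851 windows. Alone, GNAAC occurred in 84.8% and ATTGG in 37.4% of all windows. The spacing was chosen after these sequences were seen, so the match is a description. The 3 windows belong to H2-Aa, H2-Eb1 and H2-DMb1, and the last is not printed because it lies mostly within the gene model of the count table. For the other two, the 120 bases before RefSeq's start are shown because both hold the pair, 5′ to 3′ on the strand of the gene, with both elements in capitals. They lie at chr17:34287824-34287943 (minus strand, H2-Aa) and chr17:34305747-34305866 (plus strand, H2-Eb1).
H2-Aa: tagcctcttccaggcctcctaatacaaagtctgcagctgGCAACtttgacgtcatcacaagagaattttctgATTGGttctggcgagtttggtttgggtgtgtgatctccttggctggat
H2-Eb1: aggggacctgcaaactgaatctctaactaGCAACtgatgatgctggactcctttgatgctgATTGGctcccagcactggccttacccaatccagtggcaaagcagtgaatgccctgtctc

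Summed over the 7 class II genes, the level was 272 ± 82.7 CPM (SD, n = 2) in WTF, 470 ± 56.4 CPM (SD, n = 3) in NTF and 532 ± 73.8 CPM (SD, n = 3) in Abcb11F. The male sums were 83.5, 97.6 and 2698 CPM in WTM and 155, 503 and 292 CPM in Abcb11M. All 7 genes were higher in NTF than in WTF and in Abcb11F than in WTF by their fitted fold changes, with medians of 0.70 and 0.79, and none passed the test. Cd74, for example, differed by 0.87 (SE 1.22, edgeR adjusted p = 0.731) between NTF and WTF and by 1.18 (SE 1.23, edgeR adjusted p = 0.585) between Abcb11F and WTF. In bulk tissue, fewer cells of a type and less RNA per cell cannot be told apart.

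**Figure D3:**
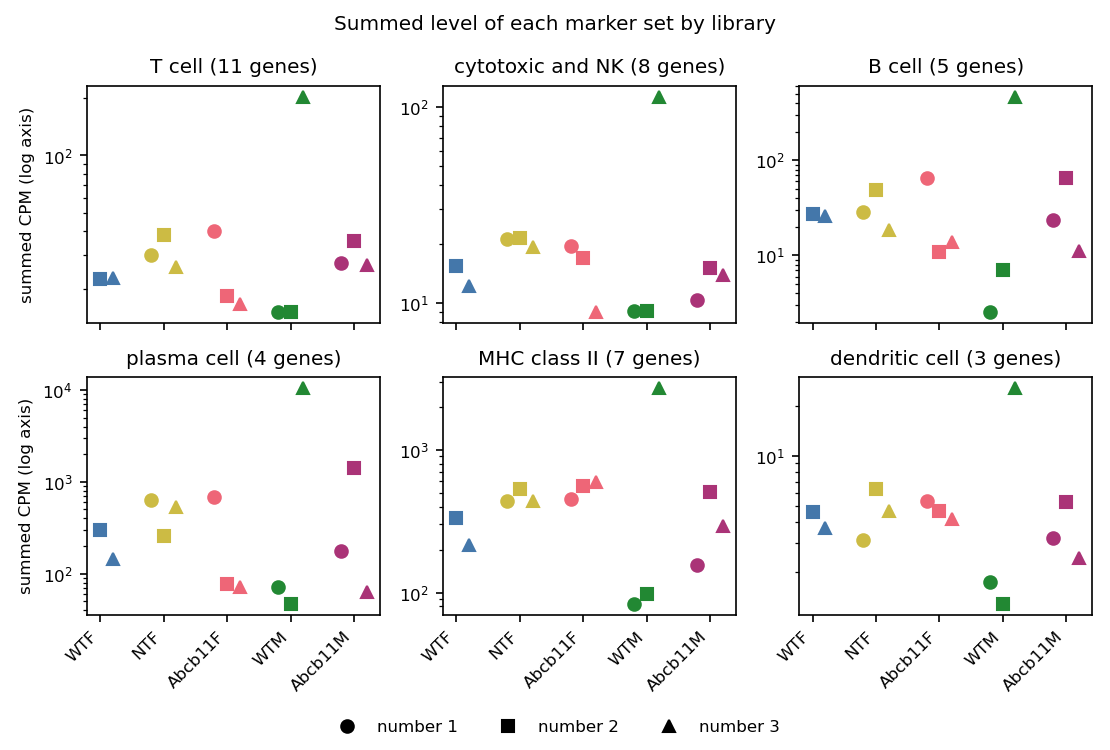
Summed CPM of each set of genes (vertical log axes) in the 5 groups, with 1 point per library shaped by its number in the labels. WTM 3 is the highest point in all 6 panels, and for MHC class II every NTF and Abcb11F point lies above both WTF points.

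The T cell genes were low in every library but WTM 3. Zap70, the kinase recruited to the activated receptor, was the most abundant of them and had another pattern than the rest. It was 11.3 and 8.53 CPM in WTF, 8.76, 13.8 and 9.54 CPM in NTF and 8.72, 3.39 and 3.75 CPM in Abcb11F. In males it was 6.86, 9.73 and 17.6 CPM in WTM and 14.8, 7.97 and 17.8 CPM in Abcb11M, the only T cell gene whose highest level was not in WTM 3. All 3 tumours lay below all 3 non-tumour samples for Zap70, by a narrow margin in tumour 1.

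Lck, the kinase that starts T cell receptor signalling, was 2.31 and 3.18 CPM in WTF, 4.25, 3.50 and 2.76 CPM in NTF and 8.10, 2.72 and 2.03 CPM in Abcb11F. It was 3.49, 1.86 and 28.1 CPM in WTM and 1.56, 4.97 and 1.19 CPM in Abcb11M. Outside WTM 3, tumour 1 was the highest library. Cd2, an adhesion receptor of T and NK cells, was 2.43 and 2.02 CPM in WTF, 2.73, 2.02 and 1.40 CPM in NTF and 3.52, 0.860 and 1.32 CPM in Abcb11F. It was 1.29, 0.859 and 39.8 CPM in WTM, where WTM 3 was 11.3 times the next highest library, and 1.71, 3.29 and 0.792 CPM in Abcb11M.

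The co-receptor genes Cd4 and Cd8a, which mark helper and killer T cells, divided the libraries differently. Cd4 was 0.686 and 0.530 CPM in WTF, 0.997, 0.949 and 1.22 CPM in NTF and 2.91, 1.48 and 1.37 CPM in Abcb11F, with no overlap between the 3 female groups. It was the 1 gene of 37 for which every tumour lay above every non-tumour sample, as did 6.38% of all tested genes. Cd4 is also made by some macrophages and dendritic cells. Cd8a was 1.996 and 3.66 CPM in WTF, 3.78, 6.82 and 2.67 CPM in NTF and 4.02, 3.11 and 2.59 CPM in Abcb11F, and these groups overlapped. The remaining T cell genes, Cd3d, Cd3e, Cd3g, Cd8b1, Cd5 and Cd28, ranged from 0 to 4.33 CPM outside WTM 3 and from 4.14 to 23.1 CPM in it.

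The cytotoxic and NK genes split in WTM 3. Ccl5, a chemokine of activated T and NK cells, was 4.74 and 5.35 CPM in WTF, 9.55, 11.3 and 8.73 CPM in NTF and 9.03, 9.80 and 4.92 CPM in Abcb11F. It was 4.66, 3.15 and 75.2 CPM in WTM and 5.21, 8.26 and 8.71 CPM in Abcb11M. Every NTF library lay above both WTF libraries, with a fold change of 0.97 (SE 1.04) that did not pass the test (edgeR adjusted p = 0.645).

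Nkg7, a granule protein of cytotoxic cells, was 2.31 and 0.915 CPM in WTF, 2.99, 2.37 and 2.26 CPM in NTF and 2.23, 1.72 and 0.456 CPM in Abcb11F. It was 1.88, 1.22 and 15.8 CPM in WTM and 0.595, 1.61 and 1.75 CPM in Abcb11M. Cxcr3, a chemokine receptor of activated T cells, was 1.12 and 1.25 CPM in WTF, 3.10, 2.31 and 2.35 CPM in NTF and 3.28, 2.49 and 1.42 CPM in Abcb11F, so that every knockout female library lay above both controls. Cxcr3 was 1.03, 0.930 and 13.7 CPM in WTM and 1.12, 2.27 and 0.678 CPM in Abcb11M.

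Of the granzyme and NK receptor genes among the 38, Gzma, Gzmb, Ncr1 and Klrd1 did not have their highest level in WTM 3. Gzma was 0.454 CPM there and 0 to 0.653 CPM elsewhere, Ncr1 was 0.202 CPM against 0 to 0.866 CPM, and Klrd1 was 2.47 CPM against 0.429 to 3.12 CPM. Gzmb was 2.07 CPM there and at most 2.08 CPM elsewhere, while Prf1, the gene of perforin, was 3.33 CPM there and at most 1.62 CPM elsewhere. A list of 18 other NK and cytotoxic genes summed to 119 CPM in WTM 3 and to at most 70.4 CPM elsewhere, and 12 of them were highest in WTM 3. Gzmk, a granzyme named after its values were seen, was 4.14 CPM there and at most 0.787 CPM elsewhere.

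The B cell genes, in sum, ran from 2.52 CPM in WTM 1 to 465 CPM in WTM 3. Cd79a, a signalling chain of the B cell receptor, was 5.11 and 6.50 CPM in WTF, 3.36, 10.6 and 3.66 CPM in NTF and 18.5, 0.813 and 1.52 CPM in Abcb11F. It was 0, 1.07 and 133 CPM in WTM and 5.36, 17.5 and 1.81 CPM in Abcb11M. Tumour 1 was thus more than 10 times tumours 2 and 3, which lay below all other female libraries.

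Cd22, an inhibitory receptor of B cells, was 6.05 and 6.89 CPM in WTF, 7.61, 12.4 and 3.80 CPM in NTF and 16.0, 5.07 and 4.72 CPM in Abcb11F. It was 0, 2.51 and 106 CPM in WTM and 6.99, 15.5 and 2.09 CPM in Abcb11M. Cd37, a tetraspanin of mature B cells, was 6.74 and 6.36 CPM in WTF, 9.92, 15.5 and 6.87 CPM in NTF and 18.4, 3.63 and 6.69 CPM in Abcb11F. It was 2.13, 3.08 and 58.8 CPM in WTM and 6.32, 14.3 and 4.18 CPM in Abcb11M. For both genes tumour 1 was the highest library after WTM 3. Cd79b and Ms4a1, which encodes CD20, ranged from 0 to 11.0 CPM outside WTM 3 and were 93.9 and 73.6 CPM in it.

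A pair of immunoglobulin constant genes made up most of the counts of the plasma cell set. Igkc, the kappa light chain constant region, was 145 and 92.5 CPM in WTF, 319, 185 and 301 CPM in NTF and 368, 52.2 and 47.1 CPM in Abcb11F. It was 51.2, 31.2 and 4561 CPM in WTM and 103, 858 and 33.4 CPM in Abcb11M. All NTF libraries lay above both WTF libraries, and tumours 2 and 3 lay below every other female library. The NTF fold change over WTF was 1.18 (SE 1.96, edgeR adjusted p = 0.780).

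Ighm, the mu heavy chain constant region, was 131 and 38.1 CPM in WTF, 272, 55.7 and 180 CPM in NTF and 281, 21.2 and 20.4 CPM in Abcb11F. It was 12.6, 10.9 and 5371 CPM in WTM and 63.7, 464 and 21.0 CPM in Abcb11M. The ratio of Igkc to Ighm, both in CPM, was 0.849 in WTM 3 and 1.10 to 4.06 elsewhere, and WTM 3 was the 1 library with more Ighm than Igkc. Jchain, which joins secreted IgM and IgA, was 23.4 and 9.88 CPM in WTF, 29.4, 12.6 and 49.4 CPM in NTF and 32.03, 3.20 and 3.19 CPM in Abcb11F. Jchain was 6.02, 3.72 and 381 CPM in WTM and 6.77, 68.5 and 7.01 CPM in Abcb11M. Mzb1, a chaperone of antibody secretion, was 0.761 to 12.6 CPM outside WTM 3 and 134 CPM in it. In the male knockouts, library 2 was the highest of the 3 for every B cell and plasma cell gene. Immunoglobulin genes form families of similar sequence, so reads may be divided between them.

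Of the dendritic cell genes, Ccr7 guides migration to lymph nodes, Flt3 is a growth factor receptor, and Xcr1 marks the cross-presenting subset. Ccr7 was 1.18 and 0.771 CPM in WTF, 1.10, 1.66 and 1.49 CPM in NTF and 3.15, 2.44 and 1.32 CPM in Abcb11F. It was 0.776, 0.573 and 18.6 CPM in WTM and 0.521, 1.97 and 1.13 CPM in Abcb11M. Ccr7 is also made by naive lymphocytes. Flt3 was 1.43 and 1.01 CPM in WTF, 1.10, 3.14 and 2.22 CPM in NTF, 1.17, 1.91 and 2.33 CPM in Abcb11F, 0, 0 and 4.29 CPM in WTM and 1.71, 2.05 and 0.678 CPM in Abcb11M. Xcr1 ran the other way in females, at 1.996 and 1.88 CPM in WTF, 0.892, 1.48 and 0.950 CPM in NTF and 0.989, 0.335 and 0.507 CPM in Abcb11F. Xcr1 was 0.970, 0.716 and 2.62 CPM in WTM and 0.967, 1.24 and 0.622 CPM in Abcb11M. Its tumour level against WTF differed by -1.66 (SE 0.78), which did not pass the test (edgeR adjusted p = 0.190).

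Non-tumour liver of knockout females was compared with wild-type female liver to ask what loss of Abcb11 does outside tumours. Of the 37 genes, 32 had a higher and 5 a lower fitted level in NTF, with a median log2 fold change of 0.57 against 0.00 over all tested genes. The 2 groups did not overlap for 14 genes in the upward direction, among them 6 of the 7 class II genes, as did 23.2% of all tested genes. They did not overlap in the downward direction for Gzmb, Prf1 and Xcr1, as did 26.5% of all tested genes. H2-Aa differed by 0.72 (SE 1.17, edgeR adjusted p = 0.772). Markers of other immune cells moved in the same samples: the summed Kupffer cell and macrophage genes were 175 and 148 CPM in WTF and 392 to 695 CPM in NTF, with 6 of 19 genes called higher. Each of those 6 calls was lost under at least 1 alternative, with a highest adjusted p of 0.264 to 0.509 by gene. The 12 all-leukocyte genes summed to 132 and 119 CPM in WTF and 193 to 246 CPM in NTF. Their part in the class II levels was not tested.

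Tumour was compared with non-tumour tissue of knockout females, where no gene of the whole table was called. The 37 genes had a median of -0.17, with 12 higher and 25 lower in tumour. All 7 tested cytotoxic genes and all 4 plasma cell genes had lower fitted levels in tumour, with medians of -0.79 and -0.72, whereas 5 of 7 class II genes had higher ones, with a median of 0.21. Every tumour lay below every non-tumour sample for Cd3e, Zap70, Gzma, Gzmb, Nkg7 and Klrd1, 6 of 37 genes, as did 7.64% of all tested genes. Gzma was 0.525, 0.653 and 0.633 CPM in NTF and 0, 0.191 and 0 CPM in Abcb11F. It differed by -3.05 (SE 1.35, edgeR adjusted p = 0.729), and Zap70 by -1.02 (SE 0.43, edgeR adjusted p = 0.704).

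Each tumour was set against the non-tumour sample of the same number, although these are not known to be paired. The median difference on a log2 CPM scale for the B cell genes was 0.91 in tumour 1, -2.62 in tumour 2 and -0.76 in tumour 3. For the plasma cell genes it was 0.08, -1.61 and -2.91, and for the class II genes 0.14, -0.04 and 0.36. These differences also carry the spread of the non-tumour samples. The B cell sums were 65.6, 10.9 and 13.8 CPM in tumours 1 to 3 and 28.8, 49.1 and 18.5 CPM in NTF 1 to 3. The plasma cell sums were 686, 78.2 and 71.4 CPM in tumours and 626, 255 and 534 CPM in NTF. Igkc differed by -0.78 (SE 1.70) and Jchain by -1.26 (SE 1.69) between the groups, and neither passed edgeR's test (adjusted p = 0.985 and 0.970).

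The ratio of class II to B cell sums differed between tumours. Tumours 2 and 3 had class II sums of 556 and 592 CPM with B cell sums of 10.9 and 13.8 CPM, a ratio of 51.0 and 42.8. Tumour 1 had 450 and 65.6 CPM, a ratio of 6.85. In the NTF and WTF libraries the ratio ran from 8.27 to 23.8. In males it was 33.1, 13.9 and 5.80 in WTM and 6.57, 7.70 and 26.1 in Abcb11M, so WTM 1 and Abcb11M 3 also lay above all NTF and WTF libraries. The Kupffer cell and macrophage genes summed to 554, 458 and 407 CPM in tumours 1 to 3. Their part in the class II levels of tumours was not tested.

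**Figure D4:**
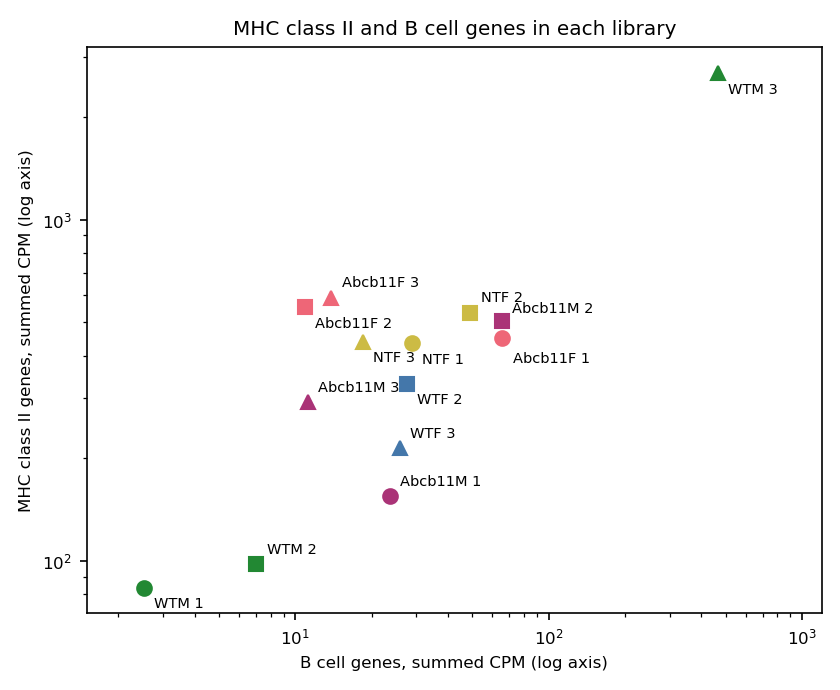
Summed CPM of the 7 MHC class II genes (vertical log axis) against that of the 5 B cell genes (horizontal log axis), 1 point per library, coloured by group and shaped by number. Abcb11F 2 and 3 lie high for their B cell level, and WTM 3 is alone at the upper right.

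Tumour against wild-type female liver gave 24 genes with higher and 13 with lower fitted levels, with a median of 0.40 against 0.03 over all tested genes. The groups did not overlap for 9 genes upward, 5 of them class II genes, and for 4 downward, Gzma, Gzmb, Prf1 and Xcr1. The same held for 24.8% and 27.6% of all tested genes. H2-Eb1 differed by 0.96 (SE 1.23, edgeR adjusted p = 0.662). This comparison shares the wild-type females with that of NTF, so the 2 are not independent.

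Knockout males were compared with wild-type males, and the direction turned on WTM 3. With all 3 controls, 34 of 37 genes had lower fitted levels in the knockouts, with a median of -1.95 against 0.11 over all tested genes. Without WTM 3, 32 of 37 had higher ones, with a median of 1.65 against 0.16. Nkg7 was the gene of smallest p with all controls, at -2.25 (SE 0.88, edgeR adjusted p = 0.0823). Cd74 changed from -1.77 (SE 1.09) to 1.65 (SE 0.43), H2-Aa from -1.45 (SE 1.04) to 1.78 (SE 0.39), and Cd8a from -0.50 (SE 0.93) to 2.43 (SE 0.69). For none of the 37 genes did all knockout males lie above, or all below, the 3 wild-type males, as 23.1% and 12.2% of all tested genes did. All 3 lay above both WTM 1 and WTM 2 for 19 of 37, as did 32.9% of all tested genes.

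Without WTM 3, edgeR called 13 genes higher in knockout males and none lower, against 14.6% of 17604 tested genes called higher and 8.39% called lower. They were 6 of 7 class II genes (H2-Eb1, Ciita, Cd74, H2-Ab1, H2-Aa and H2-DMa), 5 of 11 T cell genes (Cd4, Cd8a, Cd3e, Cd5 and Cd8b1), Cd79b and Flt3. No cytotoxic or plasma cell gene was called. Of these, 4 genes, Cd8b1, Cd5, Cd79b and Flt3, were at 0 counts in both WTM 1 and WTM 2, so their fitted fold changes are not bounds. Against a floor of 3 counts in each of those libraries, the knockout mean was 27.5-fold higher for Cd79b and 7.23-fold for Flt3. It was 6.18-fold higher for Cd8b1 and 3.08-fold for Cd5. These ratios are not bounds either, because the most frequent low count was 10 in WTM 1 and 11 in WTM 2, above that floor. The knockout means leaned on Abcb11M 2. Without it the ratios were 14.3-fold, 5.85-fold, 3.01-fold and 2.47-fold in the same order. Cd8b1 in Abcb11M 3, at 0.113 CPM, was itself under the floor. Other cell markers differed in the same libraries. The red cell genes summed to 387 and 424 CPM in WTM 1 and 2 and to 113 to 174 CPM in Abcb11M, the endothelial genes to 315 and 371 against 135 to 159 CPM, and the all-leukocyte genes to 122 and 111 against 162 to 246 CPM. Their part in the 13 calls was not tested. With those 4 genes set to their ratios over the floor, the median of the 37 was 1.63. Leaving out WTM 1 or WTM 2 instead, with WTM 3 kept, gave 5 and 7 calls. The share of all tested genes called in those fits is not given here, nor the direction of the calls. These counts therefore cannot be set against all genes. In those fits Cd74, H2-Aa and Cd8a were lower in knockout males, the opposite of their direction without WTM 3.

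**Figure D5:**
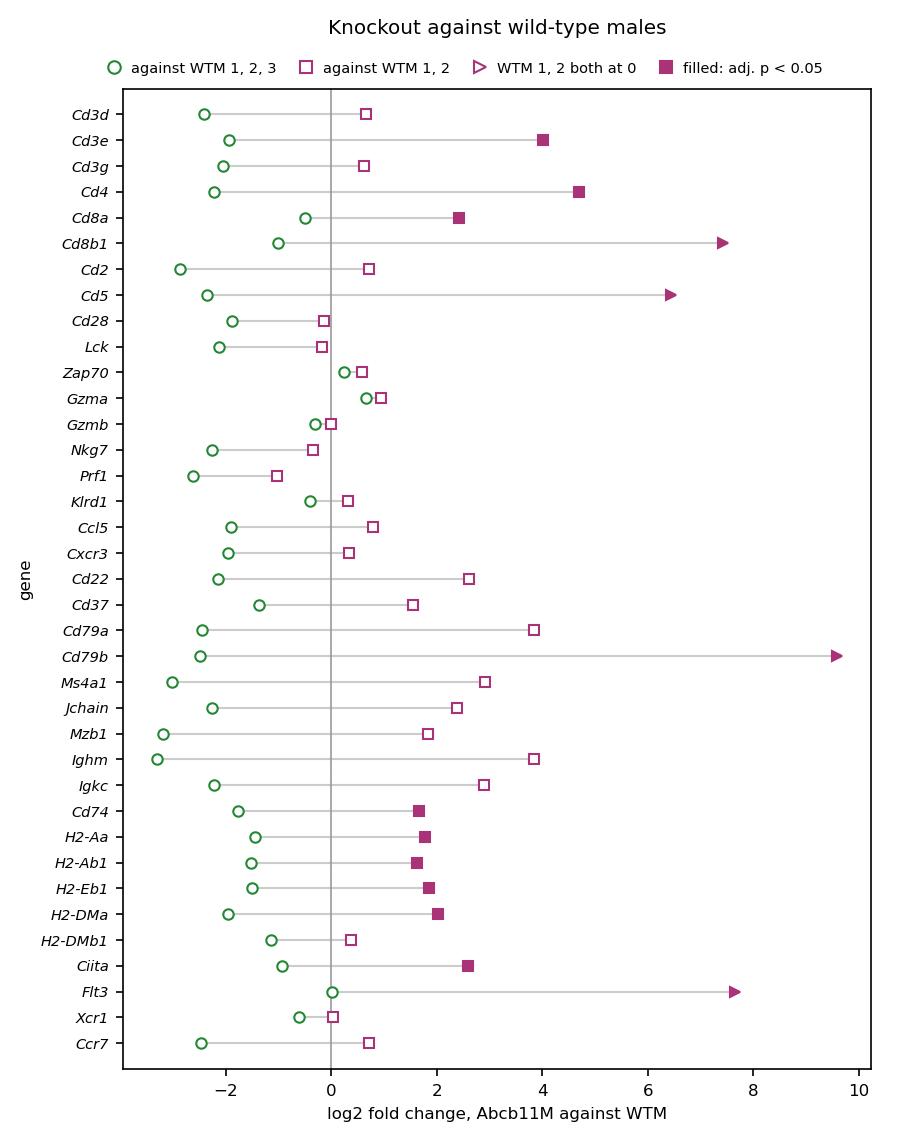
Log2 fold change of Abcb11M against WTM (horizontal axis) for each of the 37 tested genes (rows), with all 3 controls (circles) and without WTM 3 (squares, or triangles where WTM 1 and 2 are both at 0 and the fitted value is no bound). Filled symbols have an edgeR adjusted p under 0.05; 13 are filled, all without WTM 3.

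Wild-type males against wild-type females turned in the same way. The median was 2.02 with all males, with 33 of 37 genes higher, and -1.40 without WTM 3, with 33 of 37 lower. Cd3d differed by 3.34 (SE 1.60, edgeR adjusted p = 0.151) with all males. Cd74 went from 2.10 (SE 1.28, edgeR adjusted p = 0.270) to -1.31 (SE 0.46). Without WTM 3 edgeR called 12 genes lower in males, the 13 above less Cd4, against 16.9% of all tested genes called lower and 10.2% higher. For the 4 genes at 0 in WTM 1 and WTM 2 the fitted fold changes are again not bounds. Against the floor of 3 counts, the WTF mean was 20.8-fold higher for Cd79b, 5.98-fold for Flt3, 3.08-fold for Cd8b1 and 1.76-fold for Cd5. These ratios are not bounds either, for the reason given above. Cd5 in WTF 3, at 0.0964 CPM, was itself under the floor. Both WTF libraries lay above WTM 1 and WTM 2 for 28 of 37 genes, as did 41.8% of all tested genes. These 2 male libraries are the same controls as in the knockout comparison.

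The difference between the knockout effects was female NTF against WTF minus male Abcb11M against WTM. Its median over the 37 genes was 2.45 with WTM 3 and -0.89 without it. The labels do not divide Abcb11M tissue into tumour and non-tumour, so sex and tissue cannot be told apart in this difference. Without WTM 3 edgeR called Cd79b, Ciita and Flt3, all with the larger knockout effect in males. Of all tested genes, 9.87% were called in that direction and 4.93% in the other. Cd79b and Flt3 were at 0 counts in both WTM 1 and WTM 2, so their fitted differences are not bounds.

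Other genes of the class II pathway were read from a list of 15. Rfx5, a subunit of the RFX complex that binds the X box shown above, did not follow the class II genes. It was 21.2 and 29.1 CPM in WTF, 12.6, 16.9 and 13.1 CPM in NTF and 7.36, 11.7 and 12.3 CPM in Abcb11F. In males it was 4.20, 2.93 and 2.27 CPM in WTM and 19.9, 16.0 and 10.7 CPM in Abcb11M. Rfx5 was thus lowest in WTM 3, the library with the highest class II level, and within each sex the knockout groups did not overlap with the wild type.

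In knockout males Rfx5 rose by 2.31 (SE 0.32, edgeR adjusted p = 0.000309, at most 0.0232 over the alternatives). Between wild-type males and wild-type females it differed by -3.01 (SE 0.35, edgeR adjusted p = 6.9e-05). In tumours it fell against WTF by 1.27 (SE 0.33, edgeR adjusted p = 0.0267), a call lost without either WTF library or without tumour 1 or 2. Nfyb, a subunit of the NF-Y factor that binds the Y box, was 41.4 and 43.3 CPM in WTF, 18.1, 19.0 and 18.9 CPM in NTF and 16.1, 13.8 and 14.9 CPM in Abcb11F. It fell by 1.18 (SE 0.23, edgeR adjusted p = 0.0170) in NTF, a call lost without either WTF library or without NTF 1 or 3. It fell by 1.504 (SE 0.23, edgeR adjusted p = 0.00171) in tumours and was lower in WTM than in WTF by a fitted -1.12 (SE 0.23, edgeR adjusted p = 0.00357, lost without WTF 3).

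Lgmn, a lysosomal protease that helps process antigens, was 17.6 and 14.5 CPM in WTF, 44.5 to 66.6 CPM in NTF and 35.3 to 68.6 CPM in Abcb11F. Lgmn rose by 1.79 (SE 0.35, edgeR adjusted p = 0.0170) in NTF and by 1.57 (SE 0.35, edgeR adjusted p = 0.0128) in tumours, and both calls were lost without either WTF library. Cd83, which stabilises class II at the surface, was 1.12 and 2.12 CPM in WTF and 4.33 to 7.50 CPM in the knockout females. Cd83 rose by 2.02 in tumours (SE 0.56, edgeR adjusted p = 0.0355), a call lost when any 1 of the 5 libraries was left out. It was 7.96, 5.87 and 23.8 CPM in WTM, higher than in WTF by 2.94 (SE 0.58, edgeR adjusted p = 0.00289). Over the 15 genes, 1 rose and 1 fell in NTF against WTF, 2 rose and 2 fell in Abcb11F against WTF, and 2 rose (Rfx5 and Nfyc) and none fell in Abcb11M against WTM. The Nfyc rise was 0.56 (SE 0.18, edgeR adjusted p = 0.0387), and it was lost under each of the 11 alternatives run.

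MHC class I genes, which present peptides from inside the cell to CD8 T cells, were read from a list of 22. In knockout males 7 rose and 1, H2-Q6, fell, against 14.3% of all tested genes called higher and 6.32% called lower. H2-Q6 was singled out after its values were seen, and the class I genes are near-identical families whose reads may be divided. H2-T22 was 43.5, 26.6 and 56.5 CPM in WTM and 99.2, 97.1 and 129 CPM in Abcb11M, a rise of 1.36 (SE 0.25, edgeR adjusted p = 0.00197). H2-T23, the gene of Qa-1, rose by 1.24 (SE 0.29, edgeR adjusted p = 0.00865), from 75.0 to 148 CPM in WTM to 220 to 344 CPM in Abcb11M. Neither call depended on WTM 3, whereas that of H2-Q6 was lost without it (edgeR adjusted p = 0.0950), H2-Q6 being 199 CPM in WTM 3 and 74.4 and 81.0 CPM in WTM 1 and 2. Of the 7 genes that rose, H2-T22 and Cd1d1 kept the call under all 11 alternatives run, and B2m, Erap1, H2-K1, Tapbp and H2-T23 each lost it under at least 1.

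Cd1d1, which presents lipids to NKT cells, differed with knockout in opposite directions in the female and male groups. It was 433 and 449 CPM in WTF, 141, 252 and 96.5 CPM in NTF and 108, 153 and 218 CPM in Abcb11F. In males it was 110, 143 and 81.8 CPM in WTM and 400, 292 and 306 CPM in Abcb11M. Cd1d1 fell by 1.44 (SE 0.39, edgeR adjusted p = 0.0497) in NTF, a call lost without either WTF library or without NTF 1 or 3. It fell by 1.46 (SE 0.39, edgeR adjusted p = 0.0288) in tumours, a call lost without either WTF library or without tumour 1 or 2. It rose by 1.58 (SE 0.36, edgeR adjusted p = 0.00700) in knockout males. In tumours against WTF the list of 22 had 1 gene higher, Pdia3, at 1.12 (SE 0.33, edgeR adjusted p = 0.0454), a call lost when any of the 5 libraries was left out.

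Among 24 other T cell genes, 1 rose in tumours and 1 rose and 1 fell in knockout males. Themis, a signalling protein of developing T cells, was 0.561 and 0.434 CPM in WTF and 0.259, 0 and 1.51 CPM in WTM. It was 11.0, 3.14 and 4.84 CPM in NTF, 11.3, 2.68 and 19.4 CPM in Abcb11F and 20.2, 28.9 and 24.7 CPM in Abcb11M. All 9 knockout libraries thus exceeded all 5 wild-type libraries, WTM 3 included. The share of all tested genes that did so is not given here. Themis did not follow the other T cell genes, as the other 23 of the list were highest in WTM 3. Trac, the T cell receptor alpha constant gene, was 30.5 CPM in WTM 3 and 0.521, 6.43 and 1.41 CPM in Abcb11M. Themis rose by 4.47 (SE 1.14, edgeR adjusted p = 0.0289) in tumours, a call lost without either WTF library or tumour 3, and by 5.27 (SE 0.96, edgeR adjusted p = 0.00280) in knockout males. Lat, an adaptor of the T cell receptor, fell by 2.73 (SE 0.86, edgeR adjusted p = 0.0369) in knockout males, a call lost without WTM 3 and without Abcb11M 1 or 3.

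Of 19 other B cell genes and 15 other plasma cell and immunoglobulin genes, none was called in any of the 6 comparisons with all libraries. At an unadjusted p under 0.05 the B cell genes numbered 2 in Abcb11M against WTM and 0 in each of the other 5 comparisons, and the plasma cell and immunoglobulin genes 0 in Abcb11F against NTF and 1 in each of the others. In the order of comparisons used above, the shares of all tested genes at that threshold were 21.2%, 6.81%, 26.5%, 34.3%, 28.2% and 36.1%. DESeq2 called 1 of the B cell genes, in Abcb11M against WTM, and 1 of the others in each comparison but Abcb11F against NTF. Its shares of all tested genes were 10.9%, 0.162%, 17%, 25.6%, 17% and 28.6%. Without WTM 3, 4 of the 19 and 2 of the 15 were called higher in knockout males, against 14.6% of all tested genes. Of 18 other NK and cytotoxic genes 1 was called, Tyrobp, an adaptor shared by NK and myeloid cells, which rose by 1.71 (SE 0.47, edgeR adjusted p = 0.0336) in tumours against WTF and was lost without either WTF library or tumour 2 or 3.

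Genes that draw lymphocytes were read from a list of 19, of which 2 fell in NTF and 2 (Cxcl12 and S1pr1) in tumours against WTF, and 1 rose in knockout males. Cxcl12, which retains CXCR4-bearing cells, was 523 and 486 CPM in WTF, 172, 190 and 261 CPM in NTF, and 119, 94.9 and 142 CPM in Abcb11F. It was 86.7, 85.0 and 77.5 CPM in WTM and 184, 180 and 254 CPM in Abcb11M. Cxcl12 fell by 1.28 (SE 0.27, edgeR adjusted p = 0.0223) in NTF, a call lost without either WTF library or without NTF 1, and by 2.09 (SE 0.27, edgeR adjusted p = 0.000682) in tumours. It rose by 1.31 (SE 0.25, edgeR adjusted p = 0.00240) in knockout males, so its level was lowest in wild-type males. Cxcl11, a ligand of CXCR3, fell by 1.84 (SE 0.48, edgeR adjusted p = 0.0433) in NTF, a call lost without either WTF library or without NTF 1 or 3. Tlr3, a sensor of double-stranded RNA named from 18 other dendritic cell genes, rose by 2.28 (SE 0.39, edgeR adjusted p = 0.00116) in knockout males, from 1.87 to 2.78 CPM in WTM to 7.01 to 14.4 CPM in Abcb11M.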

How the data were processed

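Total RNA of 14 mouse liver samples was sequenced in pairs of reads, per the labels. Per the submitters' processing notes, HISAT2 2.0.5, featureCounts 1.5.0-p3 and GRCm38 were used; the strand setting and annotation release are not given in the sources used here. Whole fragment counts per gene were deposited by the authors without scaling. The authors also deposited FPKM, per kilobase and per mapped total, where that total was not the sum of the gene counts; this column was checked but entered no test.

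Counts of 17874 genes passing filterByExpr were fitted in edgeR 4.0.16 (limma 3.58.1, R 4.3.3) with TMM scaling, a robust quasi-likelihood F test and 6 contrasts in 1 fit of 14 libraries. The threshold was a two-sided Benjamini-Hochberg adjusted p of 0.05. The common BCV, edgeR's spread between replicates, came to 0.442. The scripts were tested on simulated counts.

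Alternatives were DESeq2's scaling factors in edgeR, no count filter, DESeq2 1.42.0, the compared groups alone, a replicate block and each library left out. The 38 genes and the lists of other genes (all found) were chosen with earlier results of these data known. Genes were given library by library where called, or as the 3 most abundant of their set by the mean of all 14 libraries (Cd2 and Nkg7 owe their place to WTM 3: without it Cd8a and Klrd1 would stand there); of the other lists, the called genes of smallest p. Cd4, Cd8a and Gzma beyond this were chosen after their values were seen.

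The labels number samples 1 to 3. Over 10229 genes with a mean of at least 5 CPM, deviations of same-numbered tumour and non-tumour libraries correlated at 0.472, 0.367 and 0.320. Those of unlike number correlated at -0.414 to 0.0394. Same-numbered libraries of the other groups showed no such pattern. However, WTM 3 and Abcb11M 2, of different genotype, correlated at 0.393, so values of this size also arise between different animals. Whether tumour and non-tumour samples are paired remains unknown. Counts of paired reads without molecular identifiers are not independent molecules, so floors cover counting error only.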

Additional observations from a re-analysis of the deposited data

Results flagged for a closer look

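The knockout effect differed between the female and male groups for 9 genes of the antigen presentation and lymphocyte lists. This was by edgeR's test of the difference itself (NTF against WTF minus Abcb11M against WTM, adjusted over all genes), called the sex difference below. NTF is non-tumour tissue and the labels do not divide Abcb11M tissue, so sex and tissue cannot be told apart in it. These 9 are 5.92% of the 152 genes tested in 9 such lists, against 10.9% of all tested genes. None of the 37 tested members of the main set was among them with all libraries. The difference was -3.13 for Rfx5 (SE 0.46, edgeR adjusted p = 0.00105), whose effect was positive in males, and the same held for Cd1d1 at -3.01 (SE 0.53, edgeR adjusted p = 0.00303). It was -2.66 for Tlr3 (edgeR adjusted p = 0.00772), -2.59 for Cxcl12 (edgeR adjusted p = 0.000976) and -2.32 for Cxcl11 (edgeR adjusted p = 0.0327). Smaller differences in that direction were -1.17 for Nfyb and -0.92 for Nfyc (edgeR adjusted p = 0.0265 and 0.0410). In the other direction they were 2.85 for Cd83 and 1.80 for Lgmn (edgeR adjusted p = 0.0210 and 0.0200).

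Without WTM 3 the differences of Rfx5, Cd1d1, Tlr3 and Cxcl12 were -2.77, -2.66, -2.36 and -2.37 and remained called, as did those of Cd83, Lgmn and Cxcl11 (a replicate block ended 8 of the 9 calls, all but that of Rfx5), while those of Nfyb and Nfyc were lost. Leaving out a WTF library ended the call of 6 genes: Nfyb, Nfyc, Lgmn and Cxcl11 without either one, Cd83 without WTF 2 and Tlr3 without WTF 3. Leaving out an NTF or another male library ended those of Nfyb, Nfyc and Cxcl11 in several cases, and of Lgmn and Cd83 without Abcb11M 1. The low-count pattern of the wild-type males enters each of these differences, and its part was not tested. No group has 4 or more samples, so no single library was tested as standing apart.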

How the results depend on the processing

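The number of the 38 genes called was 0 throughout for NTF against WTF. For Abcb11F against NTF it was 1 without the count filter. For Abcb11F against WTF it was 2 without the filter and 11 with a replicate block. For Abcb11M against WTM it was 25 without the filter, 3 with DESeq2 and 0 to 13 when libraries were left out; for the sex difference 25, 1 and 0 to 3; and for WTM against WTF 24, 3 and 0 to 12. All genes called, in the same order of comparisons: 743 became 1739 without the filter, 1942 with DESeq2, 1285 with the block and 17 to 921 when a library was left out; 0 became 338, 29 and 0 to 42 (filter, DESeq2, left out); 1718 became 3030 with DESeq2, 4400 with the block and 157 to 1378; 3688 became 2262 with the compared groups alone and 973 with the block; 1945 became 3039 with DESeq2, 184 with the block and 576 to 2604; and 4137 became 1824 alone, 1180 with the block and 1290 to 4775. Without the filter 28842 genes were tested. The share of them called is not given here for Abcb11M against WTM, the sex difference and WTM against WTF. The 25, 25 and 24 calls among the 38 genes, given without direction, therefore cannot be set against all genes. The cause was not tested.

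In Abcb11M against WTM, leaving out libraries moved Cd74 over -2.35 to 1.65, H2-Aa over -2.03 to 1.78 and Cd8a over -1.10 to 2.43, and the replicate block gave 0.37 for H2-Aa and 1.22 for Cd8a. Cd74 in WTM against WTF ranged over -1.31 to 2.69. In each the sign turned only without WTM 3 among the left-out libraries. DESeq2's factors moved the median of all genes from 0.11 to 0.00 in Abcb11M against WTM, and no set of the 38 changed sign in its median under them. Same-numbered libraries are known to share only a number. The block changed counts as above and ended the sex difference of 8 of 9 genes (edgeR adjusted p 0.0629 for Cd1d1 and 0.0648 for Cxcl12). For tumour against non-tumour tissue, blocked by number, it called 0 genes, as without it. With no replicate beyond 2 in WTF, fold changes against it rest on 2 samples.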

Other observations

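Immunoglobulin variable segments, 218 of which are in the table, give another view of the B lineage libraries. WTM 3 had 10887 counts in these segments, with 97 segments detected, and 41.5% of the counts fell on the kappa segment Igkv3-2 and 10.8% on Iglv1. NTF 1 had 980 counts over 89 segments and also led with Igkv3-2, at 35.6%, as did WTF 2, tumours 1 and 3 and Abcb11M 2, at 16.8%, 20.3%, 16.0% and 11.6%. NTF 3 had more segments detected than WTM 3, 123, from 1665 counts, and its leading segment, Igkv8-21, held 10.5%. WTM 1 and WTM 2 had 13 and 29 counts over 2 and 3 segments. Segments of a family are similar in sequence, so their shares are uncertain.

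Of 5 class-switched constant genes, Ighg1, Ighg2b and Ighg2c were highest in WTM 3, as Ighm was, at 118, 282 and 332 CPM against at most 52.5, 134 and 118 CPM elsewhere, and Igha and Ighg3 were not; the genes named here and below were chosen after their values were seen. Igha was 12.97 and 18.9 CPM in WTF and 62.5 to 87.4 CPM in NTF, and at 80.9 CPM WTM 3 was below NTF 1. Ighg3 was 57.3 CPM in WTF 3 and 0.0956 to 26.4 CPM in all other libraries, WTM 3 included.

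Ccl19 and Ccl21a, chemokines of lymph node and spleen stroma, were 0.202 and 0.0505 CPM in WTM 3, near or under its floor of 0.151 CPM. Their levels elsewhere are not given here, so no difference is read from them. Cxcl13, a B cell attracting chemokine, was 17.8 CPM in WTM 3 and 0.170 to 4.31 CPM elsewhere. The 6 thymus and lymphoid precursor genes summed to 3.13 CPM in WTM 3 and to 1.07 to 10.9 CPM in the other libraries. The 10 neutrophil genes summed to 35.8 CPM in WTM 3, below WTM 1 and WTM 2 at 49.7 and 43.7 CPM.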
